A study of Homo sapiens with 27 samples.

Results

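Ribosome occupancy at rest was described in THP-1 macrophages that had received vehicle only, by setting the ribosome footprints of each gene against its mRNA. THP-1 is a human monocytic leukaemia cell line, and all cells had first been turned into macrophage-like cells with the phorbol ester PMA at 10 ng/ml for 24 h. The members were 9 of the 27 libraries of the series, chosen by their labels: 5 vehicle footprint libraries and 4 vehicle RNA libraries. Vehicle was ethanol at 0.1% with PBS for 3 h. The other groups, used only where the vehicle ratio is set beside them, received LPS at 100 ng/ml with dexamethasone (Dex) at 1 µM, or LPS alone, each with 5 footprint and 4 RNA libraries. They carry the same PMA step, so no group holds undifferentiated monocytes, and THP-1 is 1 leukaemia line in place of donor cells. Of 20453 genes in the tables, 13114 had enough reads to be tested, and 11100 of these were well counted in both assays. A further 183 were well counted in footprints only, 1649 in RNA only, and 182 passed only when the counts of the assays were joined.

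Ribosome profiling digests the mRNA that ribosomes do not cover and sequences the protected fragments, so a gene's footprint count follows both how much of its mRNA the cell holds and how densely ribosomes sit on it. Dividing by the mRNA count leaves a ratio that is high for mRNAs loaded with ribosomes and low for mRNAs held back, for instance by a protein bound near the start, by small upstream reading frames, or by retention in the nucleus. The ratio is relative: both assays are scaled to their own totals, so it ranks mRNAs against each other and carries no absolute number of ribosomes. The RNA was selected by its poly(A) tail, which replication-dependent histone mRNAs lack.

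The tables held 15399106 to 24275778 counts in each footprint library and 21764011 to 30665116 in each RNA library. Values below are normalised CPM, a gene's counts scaled to the depth of its library with edgeR's TMM factors, and the ratio is the log2 of footprints over RNA. Gene lengths are not in the tables, so levels are compared between assays for 1 gene and not between genes. Footprint replicate 4 stood apart: its median correlation with the other footprint libraries was 0.964, against 0.993 to 0.995 for the other 4, and its scaling factor was 0.684. Many of the results that rest on it are given with and without it. Monocyte and macrophage markers were present, with 15 of 16 well counted in both assays and summed levels of 25000 to 44300 CPM in footprints and 10800 to 11700 CPM in RNA. Of 23 markers of other cell types, 16 averaged under 1 CPM in both assays, 2 of them with 0 counts in all 9 libraries. Their summed level was 21.8 to 41.2 CPM in footprints and 29.1 to 35.9 CPM in RNA.

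Occupancy differed widely between mRNAs. Among the 11100 genes well counted in both assays, the log2 ratio had a standard deviation of 1.29 between genes, while the median standard error of 1 gene's ratio was 0.152. The median ratio was 0.11, and the 5th and 95th percentiles were -2.24 and 1.92. A gene was called high or low in occupancy when its ratio was at least 2-fold from 1 with an adjusted p under 0.05 in edgeR's quasi-likelihood test. By this rule 2308 genes (20.8%) were high and 2173 (19.6%) were low, while 8526 (76.8%) passed the adjusted p at any size. These shares are the background against which each gene list below is read. With no scaling factor the median of all genes moved by -0.43 on the log2 scale and the split became 1227 high and 3223 low, so that 27.6% of the calls were high in place of 51.5%. The limit cuts through a continuous distribution, with 287 genes within 0.1 log2 above the high limit and 280 within 0.1 below it, and 205 and 216 genes in the same places at the low limit. Footprint and RNA libraries differ in read length, in how rRNA was removed and in how they were made, and such differences cannot be told apart from ribosome load in a single gene's ratio. The libraries are bulk samples, in which fewer cells and less RNA per cell cannot be told apart either.

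**Figure D1:**
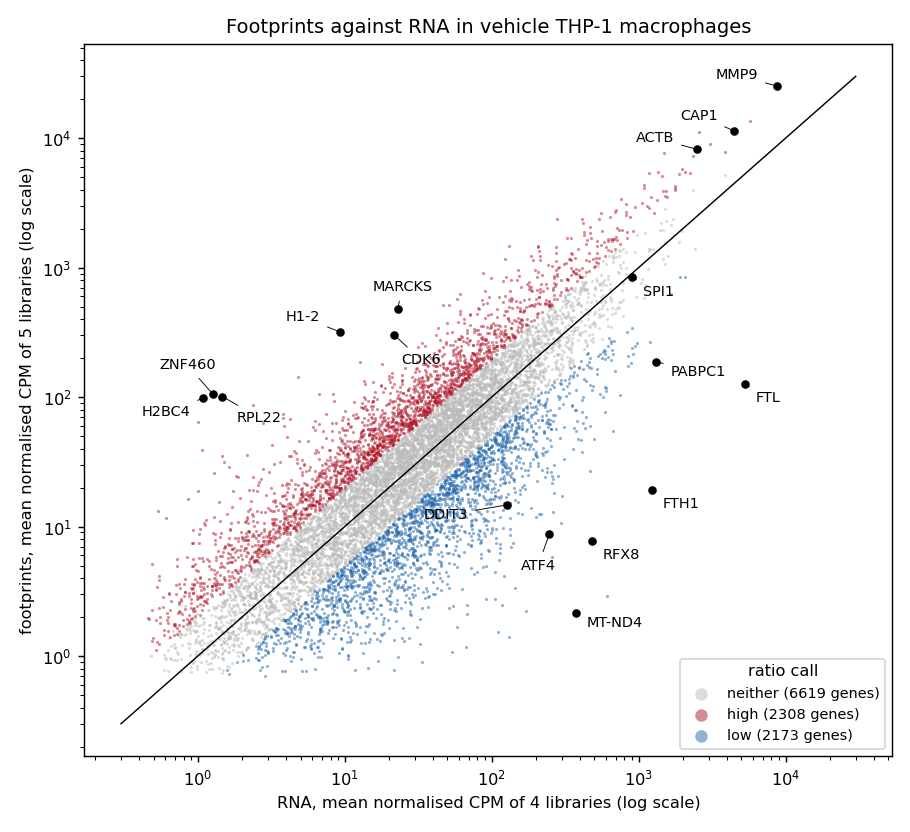
Mean normalised CPM of each gene in the 5 vehicle footprint libraries (vertical, log scale) against the 4 vehicle RNA libraries (horizontal, log scale), for 11100 genes well counted in both assays; the line marks equal values. Most genes follow the line within 2-fold, while FTL, FTH1 and RFX8 lie far below it and H2BC4, H1-2 and MARCKS far above it.

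The ratio also moved with the abundance of the mRNA. In the fifth of genes with the least RNA, 0.459 to 7.57 CPM, the median ratio was 0.48, and in the fifth with the most, 91.9 to 8770 CPM, it was -0.07. RNA enters both the ratio and the grouping, so this is a description of the table. The 10 genes with the most footprints took 9.12 ± 1.36% of all footprint counts (SD, n = 5 libraries), while the same 10 genes took 4.35 ± 0.196% of the RNA counts (SD, n = 4). They were chosen by their footprints, which favours the larger share there.

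Both ferritin mRNAs were among the 12 lowest ratios of genes with at least 5 CPM in both assays. Ferritin heavy chain (FTH1) and light chain (FTL) form the cage that stores iron in the cell. Their mRNAs are textbook cases of translational control: an iron-responsive element, a short hairpin near the start of the mRNA, is bound by iron regulatory proteins when iron is scarce, and the bound protein keeps ribosomes off. FTH1 had 17.2, 16.8, 16.3, 30.6 and 14.8 CPM in the footprint libraries, against 1430, 1640, 886 and 978 CPM in the RNA libraries. The libraries of the 2 assays did not come near each other, and footprint replicate 4 was the highest of its group. The FTH1 ratio was -6.02 ± 0.28 on the log2 scale (SE), 64.9-fold lower in footprints than in RNA (edgeR adjusted p = 6.3e-09), the lowest among genes of at least 5 CPM in both assays. FTL had 113, 111, 95, 199 and 113 CPM in footprints and 6270, 6580, 3890 and 4410 CPM in RNA. Again no library of one assay reached those of the other, and the FTL ratio was -5.39 ± 0.27 (edgeR adjusted p = 1e-08). For both genes RNA replicates 1 and 2 were above replicates 3 and 4. This split was not particular to ferritin. RPL26 had it too (133 and 147 against 85.1 and 88 CPM), and ABHD2 had the opposite one (66.2 and 49 against 126 and 106 CPM).

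The FTL element is shown because FTL has the lowest ratio of the 203 genes well counted in both assays whose start holds its core letters. The stretch below lies 21 to 50 bases after the RefSeq start of FTL, in the untranslated leader on the plus strand of chromosome 19 (GRCh38.p14, chr19:48965329-48965358). The capitals mark the stretch from a C in front to the loop letters CAGTG, matched as CNNNNNCAGTG, and the base after them.
FTL: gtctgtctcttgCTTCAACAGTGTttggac
The match was searched on the transcript strand in the first 50 bases after the start. Of 35116 starts in the RefSeq table, 599 (1.71%) held it. Among the 9118 genes well counted in both assays with a listed start, 203 held it at 1 or more starts, with a median ratio of 0.16 against 0.1 for the others. Of the 203, 30 were high and 38 low, beside 20.8% high and 19.6% low for all genes.

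Of 11 mRNAs with a known iron-responsive element, 8 were well counted in both assays, with 1 high, 2 low and a median of -0.56, beside 0.11 for all genes. The high one was TFRC, the transferrin receptor that imports iron, whose elements lie in the 3′ end and act on mRNA stability. TFRC had 645, 769, 712, 1160 and 716 CPM in footprints and 98.6, 67.9, 201 and 176 CPM in RNA, a ratio of 2.56 ± 0.31 (edgeR adjusted p = 1.4e-05). The iron importer SLC11A2 of the same list was at 0.18 (edgeR adjusted p = 0.42). RefSeq names 27 pseudogenes after FTH1 and 20 after FTL; short footprints can match such copies, how the authors treated them is not given in the sources used here, and their part in the ratios was not tested. FTH1 also overlaps BEST1 in RefSeq.

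ATF4 and DDIT3, of the integrated stress response, also stood at the low end. ATF4 is the transcription factor that this response makes when eIF2 is phosphorylated; in unstressed cells small upstream reading frames keep ribosomes from its main frame. ATF4 had 8.68, 8.36, 8.77, 9.4 and 8.82 CPM in footprints, all within a narrow range, against 281, 305, 191 and 210 CPM in RNA. Its ratio was -4.81 ± 0.15 (edgeR adjusted p = 7.4e-10). DDIT3, the stress factor also called CHOP, had 13.4, 15, 12.1, 17.2 and 15.8 CPM in footprints and 133, 160, 97.2 and 117 CPM in RNA, a ratio of -3.11 ± 0.16 (edgeR adjusted p = 1.1e-08). For both genes, each footprint library lay below each RNA library.

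Of 19 mRNAs of this kind that were well counted in both assays, 6 were low and 3 high, and the median was -0.15. The low ones, beside ATF4 and DDIT3, were the following, with the log2 ratio in brackets as in the rest of the text: PTP4A1 (-1.74), PPP1R15A (-1.38), which directs the removal of phosphate from eIF2, UCP2 (-1.38) and ATF5 (-1.22). The high ones were the myeloid transcription factors CEBPB (2.06) and CEBPA (1.45), and GADD45A (1.32). PPP1R15A had 210, 195, 202, 366 and 159 CPM in footprints and 691, 700, 542 and 426 CPM in RNA; its ratio missed adjusted p under 0.05 when tested against 2-fold itself (edgeR glmTreat adjusted p = 0.052). DDIT3 overlaps MARS1 in RefSeq, and whether counting used strand is not given in the sources used here.

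Genes of polyamine control had low or middling ratios. Polyamines are small cations made from ornithine, and cells tune their amount at the level of translation: antizymes need a ribosomal frameshift, and AMD1 carries a small upstream frame that stalls ribosomes when polyamines are plentiful. Of 9 members well counted in both assays, 5 were low, 0 were high and the median ratio was -1.54. SAT1, which acetylates polyamines for export, had the lowest ratio. It had 5.25, 6.11, 5.08, 10.5 and 5.3 CPM in footprints and 100, 115, 75 and 94.3 CPM in RNA, a ratio of -3.92 ± 0.22 (edgeR adjusted p = 2.3e-08). OAZ1, the antizyme that leads ornithine decarboxylase to the proteasome, stood at 264, 235, 249, 358 and 235 CPM in footprints and 1330, 1410, 982 and 1070 CPM in RNA, a ratio of -2.16. The enzymes AMD1 (-2.04) and ODC1 (-1.85), and the antizyme inhibitor AZIN1 (-1.54), completed the low members, and OAZ2, with 43.3 ± 5.57 CPM in footprints and 49.5 ± 3.4 CPM in RNA (SD, n = 5 and 4), had a ratio of -0.19 with an edgeR adjusted p of 0.15. The range of the list's median over the 5 footprint libraries taken singly was -1.73 to -1.34.

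**Figure D2:**
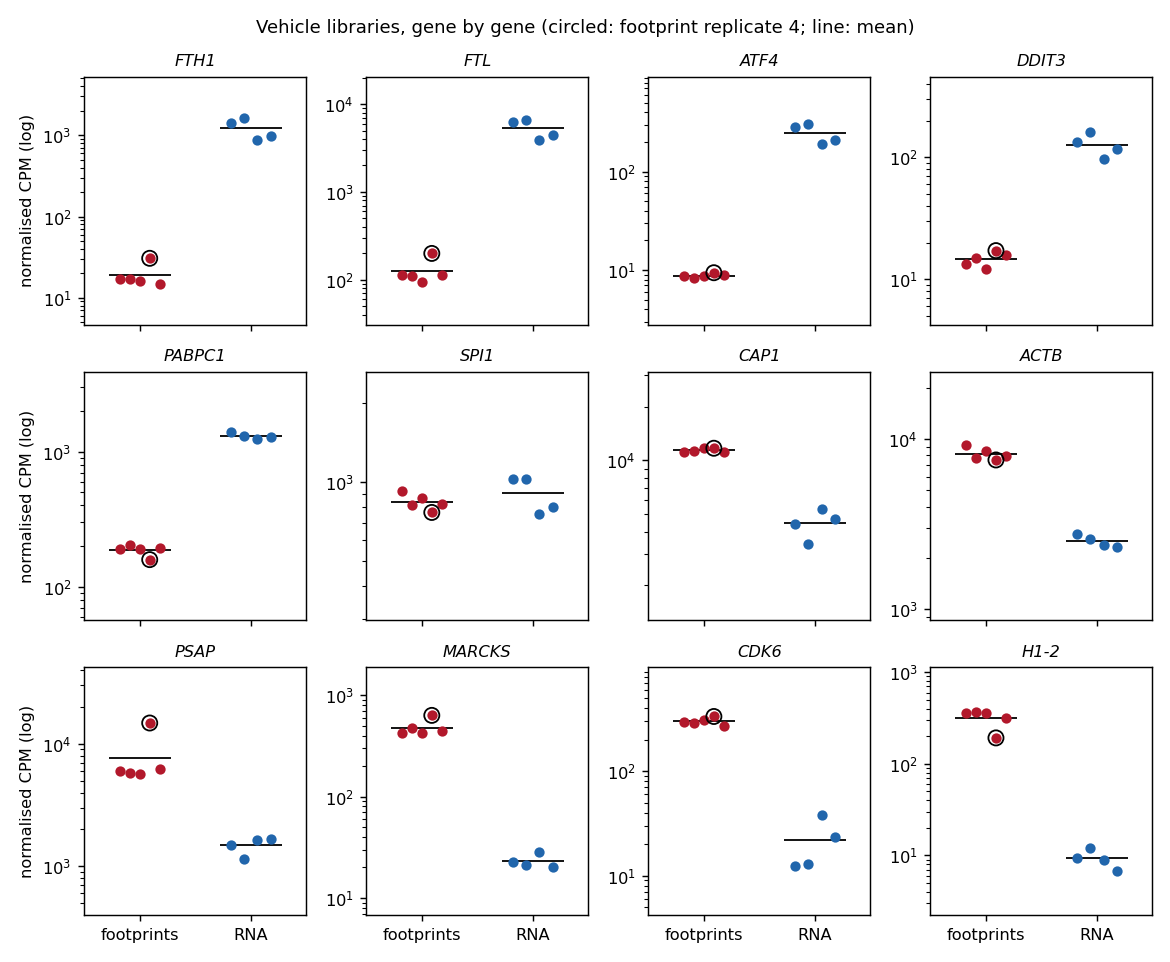
Normalised CPM (log scale, each panel with its own range) of 12 genes in the 5 vehicle footprint libraries (left) and 4 vehicle RNA libraries (right); each point is 1 library, lines are means, and the circle marks footprint replicate 4. FTH1, FTL, ATF4, DDIT3 and PABPC1 lie lower in footprints, CAP1, ACTB, PSAP, MARCKS, CDK6 and H1-2 higher, and SPI1 overlaps between the assays.

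mRNAs of the translation machinery were mixed. Ribosomal protein mRNAs and several elongation factors start with a terminal oligopyrimidine (TOP) run, a C followed by pyrimidines, through which the growth kinase mTOR controls their translation. Of 75 cytosolic ribosomal protein genes well counted in both assays, 6 were high (8.00%) and 16 low (21.3%), beside 20.8% and 19.6% for all genes. Their median was -0.26, beside 0.11 for all genes, and it was below that of all genes under every setting tried. A further 10 were well counted in RNA only. Low members included RPS27A (-3.96), RPL26 (-2.76), RPS27 (-2.61), RPS12 (-2.59) and RPLP0 (-1.54), and high ones RPS29 (1.55), RPS13 (1.13) and RPL22 (6.12). RPL22 had 101 ± 20 CPM in footprints and 1.47 ± 0.268 CPM in RNA (SD, n = 5 and 4).

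Other TOP mRNAs had 2 high, 4 low and a median of 0.2 among 23. PABPC1, the poly(A)-binding protein that represses its own mRNA, had 191, 204, 191, 159 and 195 CPM in footprints and 1390, 1310, 1250 and 1280 CPM in RNA, with no overlap. Its ratio was -2.8 ± 0.11 (edgeR adjusted p = 2e-09). TPT1, a small growth-related protein, had 247 ± 29.8 CPM in footprints and 946 ± 178 CPM in RNA (SD, n = 5 and 4), a ratio of -1.94. EEF1A1, the factor that delivers tRNA to the ribosome, stood on the other side at 152 ± 28.5 CPM in footprints and 38 ± 2.71 CPM in RNA, a ratio of 2, while EEF2, which moves the ribosome along, was at 3960 ± 298 and 2350 ± 227 CPM, a ratio of 0.75. RefSeq names 50 pseudogenes after EEF1A1, 36 after RPL26, 22 after RPL22, 20 after RPS27A, 14 after TPT1, 13 after PABPC1 and 0 after EEF2.

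The starts of 5 of these genes are shown because they share the TOP run while their ratios run from 2 to -2.76. Each covers 15 bases before and 15 after the RefSeq start (GRCh38.p14), all on the minus strand, and the capitals mark the pyrimidine run at the start. They lie at chr6:73521018-73521047, chr19:3985449-3985478, chr12:120201097-120201126, chr13:45341169-45341198 and chr17:8383179-8383208, in the order below.
EEF1A1: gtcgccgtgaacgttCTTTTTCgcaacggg
EEF2: gttgacgtcagcgttCTCTTCCgccgtcgt
RPLP0: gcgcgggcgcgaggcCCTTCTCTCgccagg
TPT1: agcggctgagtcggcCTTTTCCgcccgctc
RPL26: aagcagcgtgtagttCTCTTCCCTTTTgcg
A start with C and at least 4 further pyrimidines, read on the transcript strand, was found at 1429 of 35116 RefSeq starts (4.07%). Among the 9118 genes with a listed start it was found in 702 (7.7%), whose median ratio was 0.12, against 0.1 for the others. It was found in 44 of 61 ribosomal protein genes (72.1%), whose median was -0.22, against 0.32 for the other 17. In the table as a whole, genes with the run had nearly the same median as genes without it.

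Genes were also grouped by the number of pseudogenes that RefSeq names after them, since how the authors treated reads matching several places is unknown here. The 9244 genes with 0 such copies had a median ratio of 0.08, those with 1 to 2 copies 0.29, those with 3 to 9 copies 0.45, and the 121 with 10 or more -0.08. The spread was widest in the last group, with a standard deviation of 1.54 between genes, against 1.3 for genes without copies. Both ends of the translation factors hold such genes, and the part of these copies in single ratios was not tested.

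Splicing factors were split within the list. mRNAs of SR proteins and of the CLK kinases that phosphorylate them often keep introns that hold the mRNA in the nucleus, out of reach of ribosomes. Of 29 members, 12 were low (41.4%) and 6 high (20.7%), beside 19.6% low and 20.8% high for all genes. The median was -0.5. The low members were led by U2AF1L4 (-3.36), NKTR (-3.25), CLK4 (-3.22) and PNISR (-3.12). CLK1 had 35.3, 44.3, 45.1, 34.2 and 29.5 CPM in footprints and 241, 282, 186 and 208 CPM in RNA, a ratio of -2.6 ± 0.16 (edgeR adjusted p = 4.4e-08). The high members were SR proteins themselves, among them SRSF8 (2), SRSF2 (1.48), SRSF3 (1.31) and SRSF10 (1.29).

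Zinc finger genes named ZNF, a large family of mostly KRAB-domain repressors, had a median ratio below that of all genes. Of 360 well counted in both assays, 131 were low and 22 high, beside 19.6% low and 20.8% high for all genes, and the median was -0.66. Their ratios ran from -5 for ZNF117 to 6.35 for ZNF460. ZNF460 rests on 21 to 54 counts in each RNA library, and ZNF117 overlaps ERV3-1 in RefSeq. The family's median over single footprint libraries ran from -0.68 to -0.58, so footprint replicate 4 did not stand apart here.

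Most of the other genes among the 12 lowest lie outside these pathways. RFX8 had 5.55, 7.15, 7.44, 10.9 and 7.82 CPM in footprints, against 500, 606, 365 and 463 CPM in RNA, a ratio of -5.97 ± 0.22 (edgeR adjusted p = 1.4e-09). MAPK8IP3, a scaffold of JNK signalling, had 5.78 ± 0.916 CPM in footprints and 258 ± 51.8 CPM in RNA (SD, n = 5 and 4), a ratio of -5.48. CCDC57 (-4.79), LTO1 (-4.37), ZNF692 (-4.33), the transcription factor DMTF1 (-4.27), the adaptor subunit AP1G2 (-4.22), PPP1R16A (-4.18) and C6orf62 (-4.17) followed, each with no overlap between the assays. In RefSeq MAPK8IP3 overlaps NME3, DMTF1 overlaps TMEM243, AP1G2 overlaps THTPA and C6orf62 overlaps ACOT13, so reads of these pairs may be mixed. Which transcripts of these genes the RNA reads came from cannot be read from a count per gene.

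Among genes well counted in RNA only, where the filter favours low ratios, CPT1B had the most RNA. It had 0.446, 0.715, 0.308, 0.855 and 0.174 CPM in footprints and 147, 165, 91 and 110 CPM in RNA. CPT1B encodes the muscle form of the enzyme that carries fatty acids into mitochondria, and RefSeq lists a CHKB-CPT1B transcript that joins it to its neighbour CHKB, whose own ratio was -3.8. MT-CYB and MT-ND2, described with the mitochondrial genes, came next. SPTBN5 followed them with 0.431 ± 0.262 CPM in footprints and 96 ± 18.1 CPM in RNA, and FAN1, a DNA repair nuclease, with 0.5 ± 0.0822 and 88.6 ± 12.9 CPM (SD, n = 5 and 4). CPT1B and CHKB share their locus, so the 2 values are not independent; CHKB was chosen after its value was seen.

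Mitochondrially encoded mRNAs were nearly absent from the footprints. They are translated inside the organelle by mitochondrial ribosomes, which differ from cytosolic ones. Of 13 genes, 4 were well counted in both assays, all low with a median of -6.32, and the other 9 were well counted in RNA only. MT-ND4 had 1.83, 2.64, 2.56, 1.04 and 2.69 CPM in footprints and 418, 488, 240 and 349 CPM in RNA, a ratio of -7.39 ± 0.28 (edgeR adjusted p = 1.9e-09). MT-CYB had 0.095 to 2.82 CPM in footprints and 73 to 150 CPM in RNA, and MT-ND2 was at 0 counts in 3 of 5 footprint libraries. Whether the protocol or the counting kept mitochondrial footprints was not tested.

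Nuclear genes for the same organelle had medians above that of all genes. Of 73 nuclear-encoded respiratory chain genes, 19 were high and 2 low, with a median of 0.62, and of 75 mitochondrial ribosomal protein genes 20 were high and 0 low, with a median of 0.65. The shares of high calls, 26.0% and 26.7%, stand beside 20.8% for all genes. NDUFA5 (2.13) and NDUFA4 (2.03) were the highest of the first list, and ATP5MG (-1.61) the lowest. MRPS14 (1.64) and MRPS15 (-0.94) bounded the second.

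Replication-dependent histone genes filled the high end. Their mRNAs end in a stem-loop in place of a poly(A) tail, and the RNA assay selected poly(A), so a loss of these mRNAs from the RNA libraries and a high ribosome load cannot be told apart. Of 69 genes in the tables, 46 were well counted in footprints only and 8 in both assays. All 8 were high, with a median of 4.99. H1-2, a linker histone, had 359, 370, 356, 192 and 316 CPM in footprints and 9.44, 12.1, 8.8 and 6.83 CPM in RNA, a ratio of 5.1 ± 0.25 (edgeR adjusted p = 8.5e-09). Footprint replicate 4 was the lowest of the 5. H1-4, well counted in footprints only, had 505, 492, 463, 291 and 462 CPM in footprints and 0.199, 0.318, 0.405 and 0.162 CPM in RNA. H4C5 and H4C3 had 130 ± 20.7 and 90 ± 10.2 CPM in footprints (SD, n = 5) and 0.133 ± 0.0771 and 0.0348 ± 0.00624 CPM in RNA (SD, n = 4). Histone genes are near-copies of each other, so counts of single members are uncertain.

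Among genes with at least 5 CPM in both assays, the highest ratio outside the histones was that of MARCKS, a substrate of protein kinase C that binds actin at the membrane. MARCKS had 423, 474, 419, 632 and 442 CPM in footprints and 22.6, 20.9, 28.1 and 20.2 CPM in RNA, a ratio of 4.38 ± 0.18 (edgeR adjusted p = 2.4e-09). CDK6, the G1 kinase, had 295, 292, 309, 334 and 268 CPM in footprints and 12.4, 12.8, 38.4 and 23.6 CPM in RNA, a ratio of 3.78 ± 0.32. RNA replicates 3 and 4 were above replicates 1 and 2, and the ratio without replicate 3, the highest, was 4.2. SFT2D2 (3.96), LIN7C (3.67), ABHD2 (3.39) and C3orf80 (3.37) were of similar size. Without footprint replicate 4, SFT2D2 was at 3.76 and ABHD2 at 3.08. LIN7C, a scaffold of cell polarity, had 99 to 110 CPM in all 5 footprint libraries and 6.25 to 10.6 CPM in RNA.

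The other genes among the 12 highest depended in size on footprint replicate 4. LYZ, lysozyme, had 77.1, 90.6, 90.4, 600 and 75.7 CPM in footprints and 12.4, 12.7, 13.8 and 11.4 CPM in RNA. Its ratio was 3.89 ± 0.68 (edgeR adjusted p = 0.00025) with all libraries and 2.71 without replicate 4. GDF15, a stress cytokine, had 577, 528, 487, 5250 and 487 CPM in footprints and 139, 156, 114 and 113 CPM in RNA, a ratio of 3.49 that was 1.97 without replicate 4. IL1RN, the antagonist of the interleukin-1 receptor, had 171 to 1860 CPM in footprints and 41.7 to 49.5 CPM in RNA, with a ratio of 3.47, and 1.91 without replicate 4. METTL7B (3.47) and the scavenger receptor MSR1 (3.36) had ratios of 2.33 and 2.34 without it. All 5 remained above 2-fold in that fit, and in each of them the other 4 footprint libraries were also above the 4 RNA libraries.

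All 10 genes with the most footprints had high ratios, which choosing them by footprints favours. CAP1, which recycles actin, was the most even, with 11200, 11300, 11700, 11700 and 11200 CPM in footprints and 4400, 3420, 5320 and 4690 CPM in RNA, a ratio of 1.36 ± 0.15 (edgeR adjusted p = 6.4e-06). ACTB had 8190 ± 678 CPM in footprints and 2510 ± 206 CPM in RNA, a ratio of 1.71, and the actin-severing protein GSN 9050 ± 703 and 3080 ± 309 CPM, a ratio of 1.55 (SD, n = 5 and 4). PKM, the last enzyme of glycolysis, had a ratio of 1.54. MMP9, a secreted gelatinase, had 21500, 20400, 20100, 44100 and 19700 CPM in footprints and 9400, 9400, 7960 and 8300 CPM in RNA, a ratio of 1.52, and 1.2 without replicate 4. The secreted phosphoprotein SPP1 had a ratio of 2.11 with all libraries and 1.28 without replicate 4. ITGB2, the leukocyte integrin beta chain (1.24), CHI3L1 (1.01), the lysosomal prosaposin PSAP (2.38) and the membrane metalloproteinase MMP14 (1.64) completed the 10. Without replicate 4, PSAP was at 1.98, MMP14 at 1.21 and ITGB2 at 1.08. CHI3L1, at 0.84 without replicate 4, was then under the 2-fold limit.

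**Figure D3:**
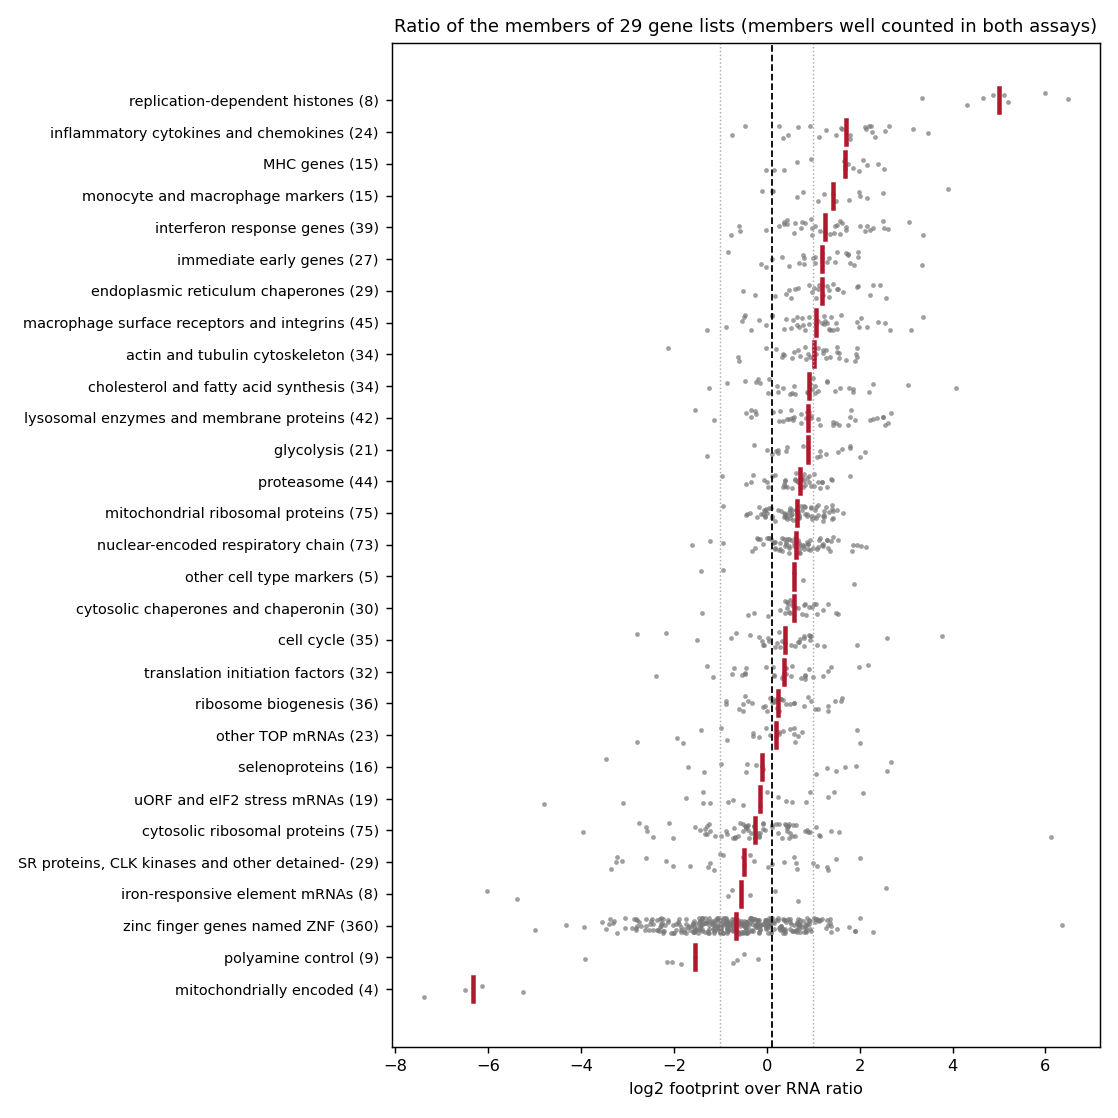
Log2 footprint over RNA ratio of the members of 29 gene lists well counted in both assays (grey points, number in brackets), ordered by their median (red bar); the dashed line is the median of all 11100 genes and the dotted lines are the 2-fold limits. Histones, cytokines and MHC genes have the highest medians, 4.99, 1.7 and 1.69, and mitochondrially encoded and polyamine genes the lowest, -6.32 and -1.54.

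Secreted and membrane proteins, which are made on ribosomes bound to the endoplasmic reticulum, had many high members. Of 29 endoplasmic reticulum chaperones and translocon genes, 19 were high and 0 low (median 1.18), among them HSPA5 (1.54), CANX (1.95), DNAJC3 (2.44) and SEL1L (2.56). Of 45 macrophage receptors and integrins, 23 were high and 1 low (median 1.05), with FCGR2A (3.1), CD44 (2.66) and C5AR1 (2.54) high and CSF3R low (-1.3). Of 42 lysosomal genes, 18 were high and 2 low (median 0.88). LIPA, the lysosomal lipase, had 1040 to 2010 CPM in footprints and 155 to 271 CPM in RNA, a ratio of 2.68, while the sulfatase IDS was at -1.55. Of 15 MHC genes, 10 were high and 0 low (median 1.69), among them B2M (1.99) and CD74 (2.06), though reads of HLA genes can match several members.

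Cytokine and early response mRNAs were also high at rest. Of 24 inflammatory cytokines and chemokines, 17 were high and 0 low, with a median of 1.7. IL1B had 2490, 2600, 2420, 7600 and 1730 CPM in footprints and 771, 827, 854 and 596 CPM in RNA, a ratio of 2.14 ± 0.39 (edgeR adjusted p = 0.00035), and CXCL8, which attracts neutrophils, had a ratio of 2.27 ± 0.45. Without footprint replicate 4 these ratios were 1.58 for IL1B and 1.57 for CXCL8. TNF was different, at 66.5, 65.8, 57, 124 and 36.2 CPM in footprints and 53.9, 66.2, 48.4 and 34 CPM in RNA, with overlap between the assays and a ratio of 0.46 (edgeR adjusted p = 0.18). Of 27 immediate early genes, 15 were high and 0 low (median 1.19), with the phosphatase DUSP6 and the antiproliferative BTG2 both at 1.97, while KLF4 was at -0.84. Of 39 interferon response genes, 20 were high and 0 low (median 1.25).

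These immune lists followed footprint replicate 4. Its own median ratio was 2.85 for cytokines, the highest of a range of 1.03 to 2.85 over the 5 libraries, and 2.37 for interferon response genes, the highest of 0.58 to 2.37. RSAD2, an antiviral enzyme, had 2.43, 3.08, 3.64, 65 and 2.82 CPM in footprints and 1.12, 0.994, 1.65 and 1.85 CPM in RNA, so its ratio of 3.37 was 1.05 without that library. Without replicate 4, cytokines had 13 high and 1 low of 24 (median 1.14), interferon response genes 12 high and 1 low of 39 (median 0.6), and immediate early genes 13 high and 0 low of 27 (median 0.87). Endoplasmic reticulum chaperones then had 15 high and 0 low, receptors 19 high and 1 low, lysosomal genes 15 high and 2 low, and MHC genes 10 high and 0 low. The cause of the difference of this library was not tested.

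**Figure D4:**
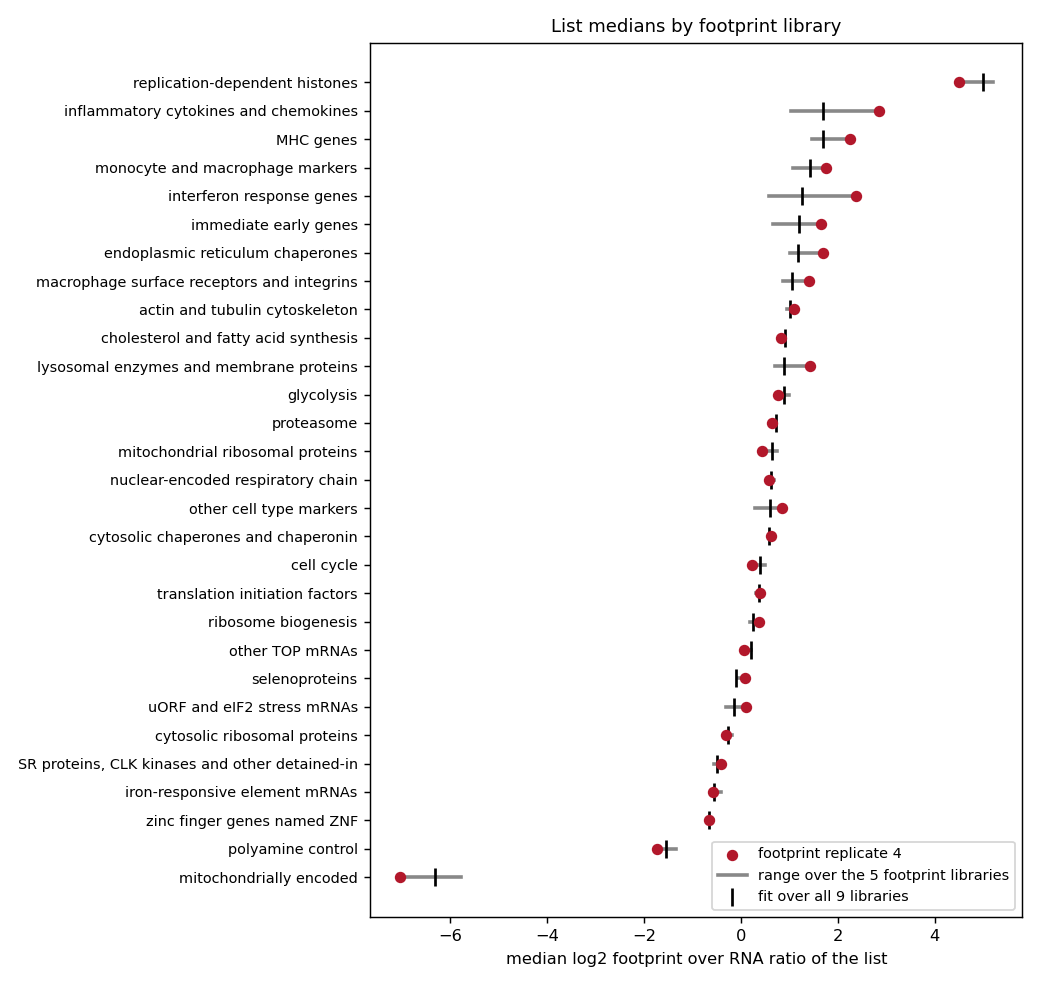
Median log2 footprint over RNA ratio of 29 gene lists; grey bars span the 5 vehicle footprint libraries taken singly, the red point is footprint replicate 4 and the black tick is the fit over all 9 libraries. Replicate 4 lies at the upper end for cytokines (2.85) and interferon response genes (2.37), and at the lower end for histones (4.5) and mitochondrially encoded genes (-7.04).

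Structural and metabolic housekeeping lists lay above the median of all genes. Their medians varied little over the 5 footprint libraries, with standard deviations of 0.0245 to 0.0851, against 0.739 for cytokines. Of 34 actin and tubulin genes, 18 were high and 1 low (median 1.02), with TPM4 at 1.95, LCP1 at 1.93 and ARPC5 at 1.92. The low one was TMSB4X (-2.12), which binds actin monomers. It had few reads, at 1.52 CPM in footprints and 6.75 CPM in RNA, and RefSeq names 8 pseudogenes after it. Of 21 glycolysis genes, 10 were high and 1 low (median 0.88), with HK2 at 2.01 and PGK1 at 1.8, and HK3 at -1.3. GAPDH, with 527 ± 32.1 CPM in footprints and 388 ± 41.4 CPM in RNA (SD, n = 5 and 4), had a ratio of 0.44. Of 34 cholesterol and fatty acid synthesis genes, 14 were high and 1 low (median 0.9). CYP51A1 (4.08) and the desaturase SCD (3.04) were high, and SCAP, the sterol sensor that escorts the SREBP factors, was low (-1.25). The CYP51A1 ratio rests on 26 to 97 counts in each RNA library. Of 44 proteasome genes, 10 were high and 0 low (median 0.72), and of 30 cytosolic chaperones 7 were high and 1 low (median 0.58). Their shares of high calls, 22.7% and 23.3%, were near the 20.8% of all genes. Their shares of low calls, 0% and 3.33%, stand beside 19.6%.

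The monocyte and macrophage markers had 10 high and 0 low of 15 (median 1.42), and the 5 well counted markers of other cell types 1 high and 1 low (median 0.59). Without footprint replicate 4 the macrophage markers kept 10 high and 0 low, with a median of 1.1. 4 further lists had medians within 0.3 of that of all genes. Translation initiation factors had 5 high and 3 low of 32 (median 0.37), from EIF3C (-2.39) to EIF5A (2.17). The EIF3C ratio rests on 11 to 17 counts in each footprint library. Ribosome biogenesis genes had 7 high (19.4%, beside 20.8% for all genes) and 0 low of 36 (median 0.24). Cell cycle genes had 5 high and 3 low of 35 (median 0.39), with CCND1 at 2.59 and E2F1 at -2.79. Selenoproteins, whose mRNAs recode a stop codon, had 7 high and 3 low of 16 (median -0.1). SELENOI (2.68) and SELENOT (2.59) led the high ones. SELENOO (-3.47), SELENOW (-1.71) and GPX4 (-1.35), the lipid peroxide reductase, were the low ones, and GPX1 was at -0.45. MDM2 was at 0.41, and SPI1, the master transcription factor of macrophages, at -0.11, with 839 ± 59.6 CPM in footprints and 904 ± 144 CPM in RNA (SD, n = 5 and 4; edgeR adjusted p = 0.45).

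The resting pattern was largely found again after treatment. Over the 11100 genes, the ratio in LPS cells and that in vehicle cells had a Pearson correlation of 0.965, and the ratio in LPS and Dex cells and that in vehicle cells 0.963, as a description across genes, which are not independent. Of the 2308 genes high in vehicle, 2125 had a ratio of at least 2-fold with LPS and Dex and 2086 with LPS. Of the 2173 low ones, 1946 were at least 2-fold low with LPS and Dex and 1947 with LPS. The difference in ratio between treatment and vehicle passed an edgeR adjusted p under 0.05 for 211 of 13679 genes (1.54%) with LPS and Dex, and for 207 (1.51%) with LPS; both differences use the same vehicle libraries. Without vehicle footprint replicate 4 the counts were 330 and 284.

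Of 117 genes named by rule or added, 3 passed this test for each treatment. DMTF1 was at -3.6 with LPS and Dex, -3.53 with LPS and -4.26 in vehicle, and FAN1 at -5.37, -5.29 and -7.43. The vehicle ratio of FAN1 rests on 5 to 13 counts in each footprint library, and FAN1 overlaps MTMR10 in RefSeq. SAMD9L, an antiviral gene, was at -2.82 with LPS and Dex, -2.64 with LPS and -0.76 in vehicle, where footprint replicate 4 had 75.3 CPM and the other 4 footprint libraries 16.4 to 19.7 CPM. Its difference from vehicle with LPS was -1.88 (edgeR adjusted p = 0.018), and -1.19 without that library. FTL was at -5.82 with LPS and Dex, -5.49 with LPS and -5.38 in vehicle, and ATF4 at -5.19, -4.85 and -4.8; neither difference passed the test.

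**Figure D5:**
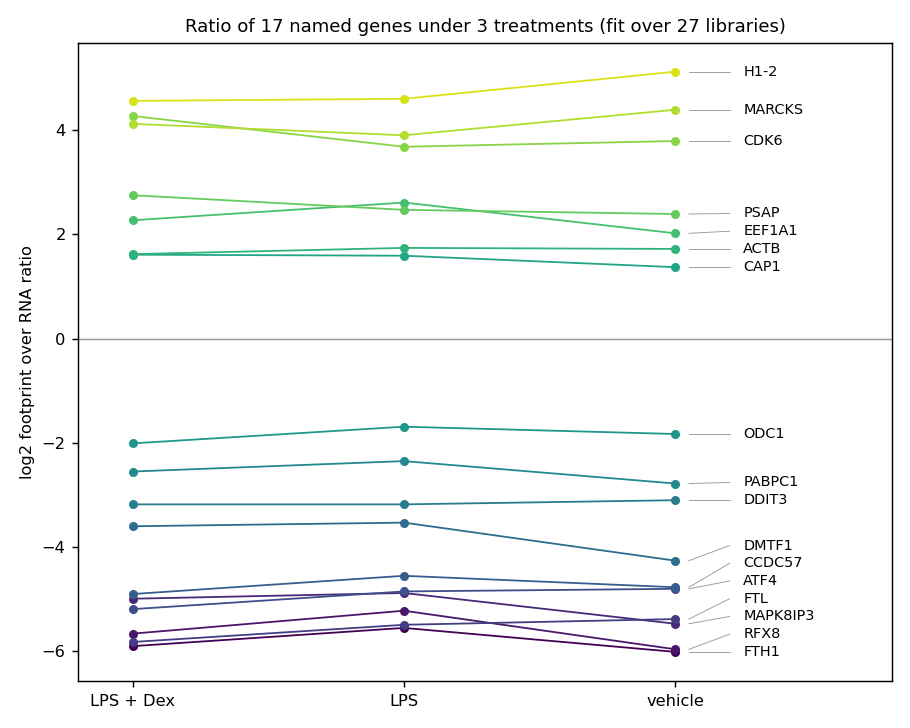
Log2 footprint over RNA ratio of 17 named genes with LPS and Dex, with LPS and in vehicle, from 1 fit over 27 libraries; each line is a gene, and thin lines lead to its name. The genes keep their side of 0 under all 3 treatments, with FTH1 between -6.01 and -5.55 and H1-2 between 4.56 and 5.12.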

How the data were processed

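The authors deposited 2 tables of raw counts per Ensembl gene, 1 for footprints and 1 for RNA, with 1 column per library. Per the labels' protocols, footprints came from lysates with cycloheximide, RNase digestion, column purification and rRNA removal, and RNA from the same cells by poly(A) selection with a stranded kit. The submitters' processing notes name Bowtie2 2.4.5, STAR 2.7.10a, featureCounts 2.0.1, DESeq2 1.26.0 and the GRCh38 build. The sources used here do not give the counted feature, strand setting or annotation, nor how multi-mapping reads were handled. If whole exons were counted, untranslated ends enter RNA counts and lower the ratio.

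Here the counts of the 9 vehicle libraries were fitted with edgeR 4.0.16 (R 4.3.3), TMM factors and the assay as the single term, with the quasi-likelihood test and Benjamini-Hochberg adjustment over 13114 genes. Genes needed a count of about 10 in the libraries of 1 assay (0.477 CPM in footprints, 0.424 CPM in RNA). Counts of calls use genes well counted in both assays, since in genes well counted in 1 assay the filter favours 1 direction. Of those well counted in RNA only, 1347 were low, 2 high and 300 neither. Ratios under treatment came from 1 fit over 27 libraries with 6 groups. The script was tested on simulated data. No 2 libraries of the same group held identical values. Nothing in the labels says that replicates came from separate cultures, so p-values measure the spread between these libraries, which may be technical; intervals cover counting error and that spread only.

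The members, gene lists and rules were chosen with earlier results of these data known. The text names the 12 highest and 12 lowest ratios among genes of at least 5 CPM in both assays without overlap, the 10 genes with the most footprints, the 5 with the highest CPM in each single-assay set, the ends of each list and a panel of known cases; other list members are examples chosen after their values were seen. Alternatives were other scalings, DESeq2 1.42.0, a test against 2-fold, no filter, a replicate block and leaving out each library. Symbols came from a gene name table, which matched 20407 of 20453 genes, and gene positions, pseudogenes and starts from RefSeq (GRCh38.p14), matched by symbol.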

Additional observations from a re-analysis of the deposited data

Results flagged for a closer look

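Among 52 named genes, 1 library lay far from the others of its group in 21 genes (its gap to the nearest library, as a share of the group's range, was over 0.71 for 5 libraries or 0.829 for 4). Chance gives such a gap in about 1 of 20 groups that were not chosen by their values. The 52 genes include those picked by a high ratio or a large footprint share, which a high library favours. The rate therefore does not apply to them. In each of the 21 genes the library was footprint replicate 4, which was the highest in 18 and the lowest in 3. It was highest for ABHD2 (a gap of 0.987 of the range), IL1RN (0.966), GDF15 (0.929), LYZ (0.913), SPP1 (0.911), METTL7B (0.901), PSAP (0.894), MMP9 (0.891), CHI3L1 (0.882), MSR1 (0.846), MMP14 (0.835), SFT2D2 (0.801), CXCL8 (0.772), ITGB2 (0.736) and IL1B (0.723), and for FTH1 (0.794), FTL (0.764) and OAZ1 (0.724). It was lowest for H1-2 (0.757), AZIN1 (0.747) and PABPC1 (0.728).

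The same library had the fewest counts of the 5 (15399106, against 19614350 to 24275778) and the lowest scaling factor (0.684, against 0.913 to 0.948). Without it the median standard deviation of a gene over the footprint libraries was 0.12 on the log2 scale, against 0.204 with it. Over the 4 RNA libraries it was 0.193. The gap rule looks for a single library, so it does not flag RNA libraries that split into pairs.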

How the results depend on the processing

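The 2308 high and 2173 low genes became 1227 and 3223 with plain CPM and 1508 and 1667 when tested against 2-fold; under the other scalings, DESeq2, no filter and all 27 libraries in the fit, both counts were within 1.5 times. Leaving out 1 library at a time gave 2095 to 2385 high genes and 2131 to 2223 low genes, the fewest high ones without footprint replicate 4. No call was made in the opposite direction under any of these settings. Each list's median kept its side of the median of all genes.

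With a replicate block the counts were 2303 high and 2208 low, of which 2246 and 2146 were the same genes. Whether same-numbered libraries belong together cannot be decided from 4 pairs. The correlation of their deviations was over 0.1 in 1 of 4 same-numbered pairs (lowest -0.0236, median 0.02, highest 0.19). Among differently numbered pairs it was over 0.1 in 1 of 16 (lowest -0.191, median -0.0176, highest 0.168). For the ratio under treatment, alternatives chosen after seeing the data gave 343 genes with LPS and Dex with the replicate block and 330 without footprint replicate 4, in place of 211, and 300 and 284 genes with LPS in place of 207; the cause was not tested. Of the named genes, ITGB2, CAP1, CHI3L1, HK3, CSF3R, SCAP and PPP1R15A lost the call in at least 1 setting, and so did SLC2A3, with a ratio of 2.12 that was 0.96 without footprint replicate 4. Ratios of genes with few counts in 1 assay, such as RPL22, rest on few reads.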
